A study of Mus musculus with 6 samples.

Results

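The cytosolic ribosomal protein genes were taken by symbol from the deposited table of mouse Treg cells: symbols that start with Rpl or Rps and a digit, with Rplp0, Rplp1, Rplp2 and Rpsa, and without the kinase genes starting with Rps6k and the rows with -ps. This gave 86 of the 14098 genes in the table. Of these, 46 encode proteins of the large ribosomal subunit (60S) and 31 of the small subunit (40S). The rule also took 8 paralogs or retrocopies, namely Rpl22l1, Rpl36al, Rps27l, Rpl39l, Rpl10l, Rpl7l1, Rpl6l and Rps27rt, and 1 gene that encodes no ribosomal protein, Rps19bp1, which encodes a binding partner of the Rps19 protein. Fau, which encodes a ribosomal protein fused to a ubiquitin-like protein, lies outside the rule and is described with the related lists.

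The cells were EGFP-positive regulatory T (Treg) cells, which need the factor Foxp3 and hold immune responses in check, from spleens of C57BL/6 mice aged 18 to 21 weeks. The 3 cKO samples came from Bach2fl/fl Foxp3EGFP-Cre-ERT2 mice and the 3 WT samples from Bach2+/+ Foxp3EGFP-Cre-ERT2 mice. Both genotypes carried the same tamoxifen-inducible Cre, expressed with EGFP from the Foxp3 locus, and both received tamoxifen. Bach2 encodes a transcriptional repressor. How many animals gave each sample is not given in the sources used here. RNA was counted as unique molecular identifiers (UMIs) by droplet 3′ sequencing of single cells. The 10685 cell columns carry barcode suffixes 1 to 6, called sets here, and no name ties a set to a sample. Genotypes were therefore not compared and no test was run, since cells are not replicates, and each value is given with its spread over the 6 sets.

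Every ribosome holds one copy of nearly all of these proteins, which bind ribosomal RNA and shape the sites where messenger RNA is decoded and peptide bonds form. Their messenger RNAs are among the most abundant of a cell. Mammalian ribosomal protein messenger RNAs begin with a run of pyrimidines at the capped end, the 5′ terminal oligopyrimidine (TOP) motif, through which the kinase complex mTORC1 controls their translation and stability. In T cells, stimulation of the antigen receptor is known to raise ribosome production, while resting cells keep a stock of TOP messenger RNAs that are translated little.

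The bases around the annotated start are shown first, because the pyrimidine run is the feature that names this class of transcripts. RefSeq start sites (GRCm38.p6) were found for 65 of the 86 members, and 56 had 1 start only. Below, 30 bases are given, 15 before the start and 15 from it on, 5′ to 3′ on the gene's strand, with the longest unbroken run of C or T in capitals. The first 4 are members from the lower end of the ratios described below, the next 4 are from the upper end, and the last 3 compare Rps27 with its retrocopy and show Rpl22l1.
Rpl35, chr2:39005117-39005146, minus strand: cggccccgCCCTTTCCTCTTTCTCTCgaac
Rpl12, chr2:32961697-32961726, plus strand: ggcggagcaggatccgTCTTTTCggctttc
Rps7, chr12:28635939-28635968, minus strand: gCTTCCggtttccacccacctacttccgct
Rps28, chr17:33824548-33824577, minus strand: ggtaccgcgtgcggTCTCgcgagagcgaaa
Rpl41, chr10:128549154-128549183, minus strand: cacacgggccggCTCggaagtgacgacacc
Rps12, chr10:23787195-23787224, minus strand: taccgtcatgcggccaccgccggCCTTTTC
Rpl7l1, chr17:46782642-46782671, minus strand: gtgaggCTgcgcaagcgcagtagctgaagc
Rps19bp1, chr15:80264292-80264321, minus strand: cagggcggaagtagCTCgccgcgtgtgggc
Rps27, chr3:90213634-90213663, minus strand: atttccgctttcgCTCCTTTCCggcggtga
Rps27rt, chr9:114982725-114982754, minus strand: agaacttaTCCCTTgctttccggcggtgac
Rpl22l1, chr3:28805493-28805522, plus strand: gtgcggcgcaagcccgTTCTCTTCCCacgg
Rpl35 had a run of 18 pyrimidines across its start, against 2 in Rpl7l1 and 3 in Rps19bp1. Rpl12 from the lower end and Rps12 from the upper end both had a run of 7. Rps27 and Rps27rt shared 14 bases in a row just after the start, and the retrocopy lies on another chromosome. Among members with 1 start, 22 of 56 (39.3%) held a run of at least 8 pyrimidines in this window, against 11.5% of 8067 other genes of the table. The letters CTTTCC, all pyrimidines but counted whatever the length of the run, stood on the gene's strand in 17.9% of member windows and 1.34% of the others. On the opposite strand they stood in 0 of 56 and in 89 of 8067. The activated over resting log2 ratios described below had a median of -0.50 (-0.65 to -0.33) in the 22 members with a run of at least 8. In 32 tested members with a shorter one, Rpl7l1 and Rps19bp1 among them, the median was -0.45 (-0.66 to 0.34). Rps7 and Rps28 were among the lowest members with runs of only 5 and 4. Annotated starts can lie some bases from the real cap, so a short run here says only that these letters are not in this window.

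The members made up a large part of all RNA counted, 9008389 of 25389602 UMIs (35.5%). Sets held 1641 to 1902 cells and 3998172 to 4786590 UMIs, and 63 barcodes (126 cells) occurred in more than 1 set. After 10680 of 10685 cells had passed the filters on genes and mitochondrial UMIs, 394 cells with markers of other cell types and 176 shallow cells were left out, which left 10110 Treg cells. In these the members' share of UMIs was 38.1, 37.7, 38.8, 32.5, 32.7 and 33.4% in sets 1 to 6. Sets 1, 2 and 3 were each above sets 4, 5 and 6, and the exact binomial intervals, which cover counting error only, were about 0.1 points wide. The mitochondrial share, by contrast, lay between 1.78 and 1.85% in every set.

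Resting and activated Treg cells were told apart by their markers, after each cell had been thinned to 600 UMIs of genes outside the family. A cell with at least 2 more activated than resting markers detected was called activated (2822 cells), one with at least 2 more resting markers resting (2191 cells), and 5097 lay between. The 16 resting markers, such as Ccr7 of lymph node homing, summed to 5646 to 6029.6 UMIs per 1000000 other UMIs in resting cells and 1439 to 1673 in activated cells over the sets. Here and below, a level is UMIs per 1000000 UMIs of genes outside the family. This scale keeps a change of the large ribosomal pool from shifting every other gene, and since 3′ tags are counted once per molecule it is not divided by length. Foxp3 was sparse, at 29.1 to 41.1 in resting and 15.3 to 37.9 in activated cells. Ikzf2, which encodes the Treg factor Helios, was at 869 to 1125 and 1961 to 2082. Of the other Treg identity genes listed, Il2ra was lower in activated cells, at 102 to 153 against 185 to 242. Tnfrsf18 was higher, at 1050 to 1171 against 572 to 705, and Ctla4 overlapped, at 135 to 231 against 114 to 154. The classes are ranges of a marker count rather than cell types. A difference of exactly 1 or 2 markers, just short of a limit or just at it, was found in 5587 cells.

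Activated cells devoted a smaller part of their RNA to ribosomal proteins than resting cells in 6 of 6 sets. In resting cells the members took 41.7, 41.2, 42.5, 36.1, 36.0 and 36.7% of UMIs in sets 1 to 6. In activated cells they took 33.1, 32.6, 32.7, 29.6, 29.7 and 30.5%, and cells between the classes lay between these values in every set. The highest activated share (33.1%) was below the lowest resting share (36.0%), so the classes did not overlap over the sets. Relative to all other RNA, the pool was 1.39-fold lower in activated cells (median log2 ratio -0.48), from 1.32-fold in set 6 to 1.52-fold in set 3. The log2 ratios were -0.53, -0.54, -0.60, -0.43, -0.41 and -0.40 in sets 1 to 6. The ratio of UMIs pooled over sets was larger in size, -0.55 (exact interval for counting error -0.554 to -0.548), and the sets with more resting cells had the higher shares.

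**Figure D1:**
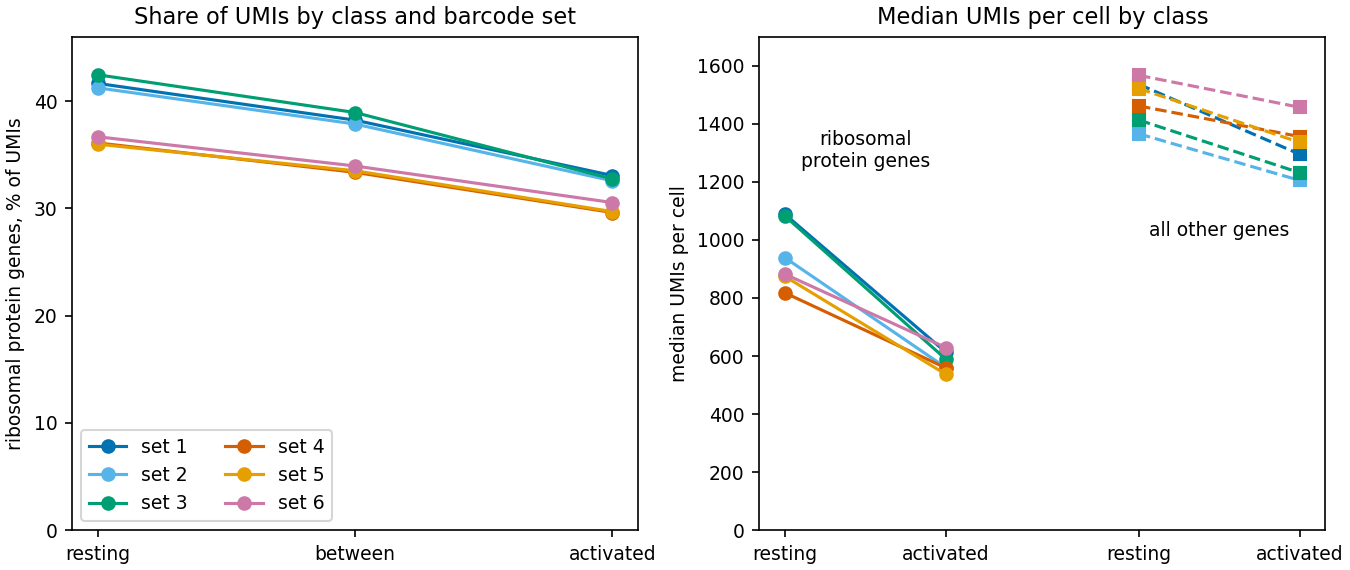
Left, share of UMIs in the 86 ribosomal protein genes (%) in resting, between and activated Treg cells. Right, median UMIs per cell of these genes (circles, solid lines) and of all other genes (squares, dashed lines) in resting and activated cells. Each line is 1 of 6 barcode sets. The share is lower in activated cells of each set, 29.6 to 33.1% against 36.0 to 42.5%.

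Counted per cell, the difference was larger for ribosomal protein transcripts than for others. A resting cell held a median of 967 member UMIs and an activated cell 580.5, while UMIs of all other genes were closer, at 1467 and 1319. In every set the median of member UMIs was lower in activated cells (537 to 629 against 818 to 1088). Single cells overlapped: over the sets, 5.47 to 19.4% of resting cells had a share below the activated median. Depth moved with the result, with a median of 2481 UMIs in resting and 1899 in activated cells. The pool ratio was therefore also taken in bands of other UMIs, chosen after the data had been seen. The part of depth in the result was not tested. The median log2 ratio was -0.26 (-0.47 to -0.08) in cells with 600 to 1000 other UMIs, where a class had as few as 18 cells in a set. It was -0.45 at 1000 to 1400, -0.48 at 1400 to 2000 and -0.47 at 2000 to 4000, and in each band it was below 0 in 6 of 6 sets.

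The median share over sets was lower at each step of the marker count. From cells with at least 5 more resting markers to cells with at least 5 more activated ones, the median share over sets went from 41.5% through 39.0% at 3 more resting markers, 36.0% at equal numbers and 31.3% at 3 more activated markers to 28.7%. Of the extreme classes, the first held 181 cells and the last 297, with as few as 17 and 27 in a set. Markers of other cell types were present at low levels. The 5 B cell markers in the table, of 9 listed, summed to 42.6 to 57.0 in resting and 64.5 to 77.3 per 1000000 in activated cells, without overlap, and the 11 myeloid markers to 180.1 to 237 and 224 to 304. The levels of myeloid markers overlapped between classes and had the higher median in activated cells. Lyz1 was at 0 in both classes and Itgax at 0 in resting cells. The 7 erythroid markers summed to 433 in resting and 399.8 in activated cells of set 5 and to 143 and 149 in set 1. In the other sets they lay at 1.58 to 52.7 and 9.57 to 55.2. Without set 5 the pool ratio was -0.53, the same as without set 4 or 6. Without set 1 it was -0.43, the same as without set 2 or 3. Each is fixed by the order of the sets, because the ratio is a median over them. Leaving out set 5 or 1 therefore cannot show the part of erythroid RNA. The part of RNA from other cells in the result was not tested. The cells that had been left out had members' shares of 33.9% (119 with B cell markers) and 34.8% (277 with myeloid markers).

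**Figure D2:**
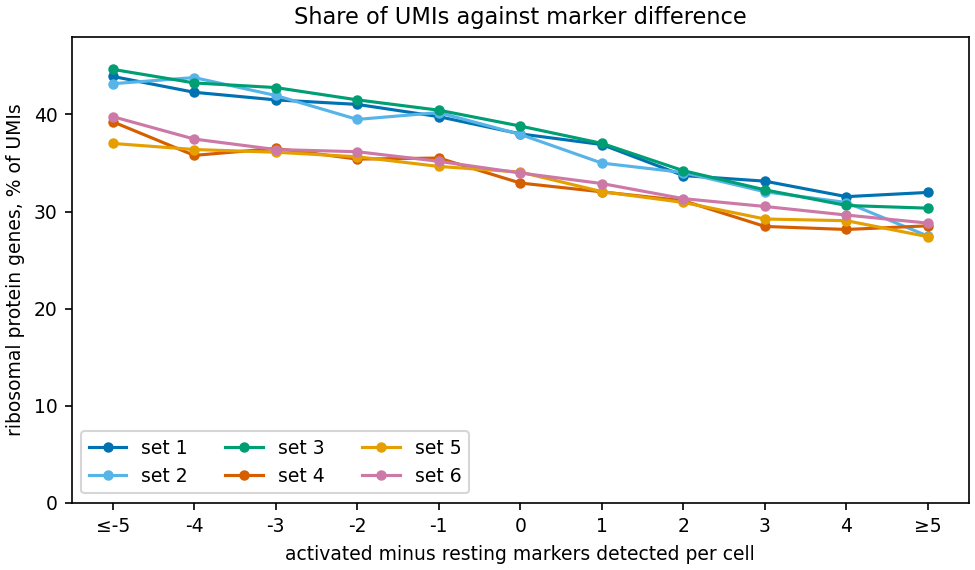
Share of UMIs in ribosomal protein genes (%, vertical) against activated minus resting markers detected per thinned cell (horizontal), 1 line per barcode set. Each line runs downward, with small steps back between some neighbouring classes in sets 1, 2 and 4.

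Nearly all members shared the direction. A member was called when its median ratio over the sets was at least 1.2-fold and all 6 sets had the same sign. Of 84 members with at least 200 UMIs over both classes, 79 were called lower in activated cells and 2 higher. Over all 5458 genes tested, 8.79% were called lower and 10.0% higher by the same rule, and without the members 7.46% and 10.1%. Among the 1826 genes at a level of 100 or more, 15.1% and 10.4% were called. The members' median log2 ratio was -0.46, with the middle 50% between -0.53 and -0.42, and the median of the other 5374 genes tested was 0.02. When levels were taken relative to all UMIs, members included, the median gene tested was itself 0.19 higher in activated cells (log2), and 55 members were called lower and 3 higher, against 4.64% and 22.1% of all genes. Of the 84, 80 were lower in 6 of 6 sets at any size, against 11.1% of all genes. For 75 members the levels of the 6 sets did not overlap between classes. Among all genes tested, 5.83% were without overlap and lower, and 5.81% without overlap and higher.

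**Figure D3:**
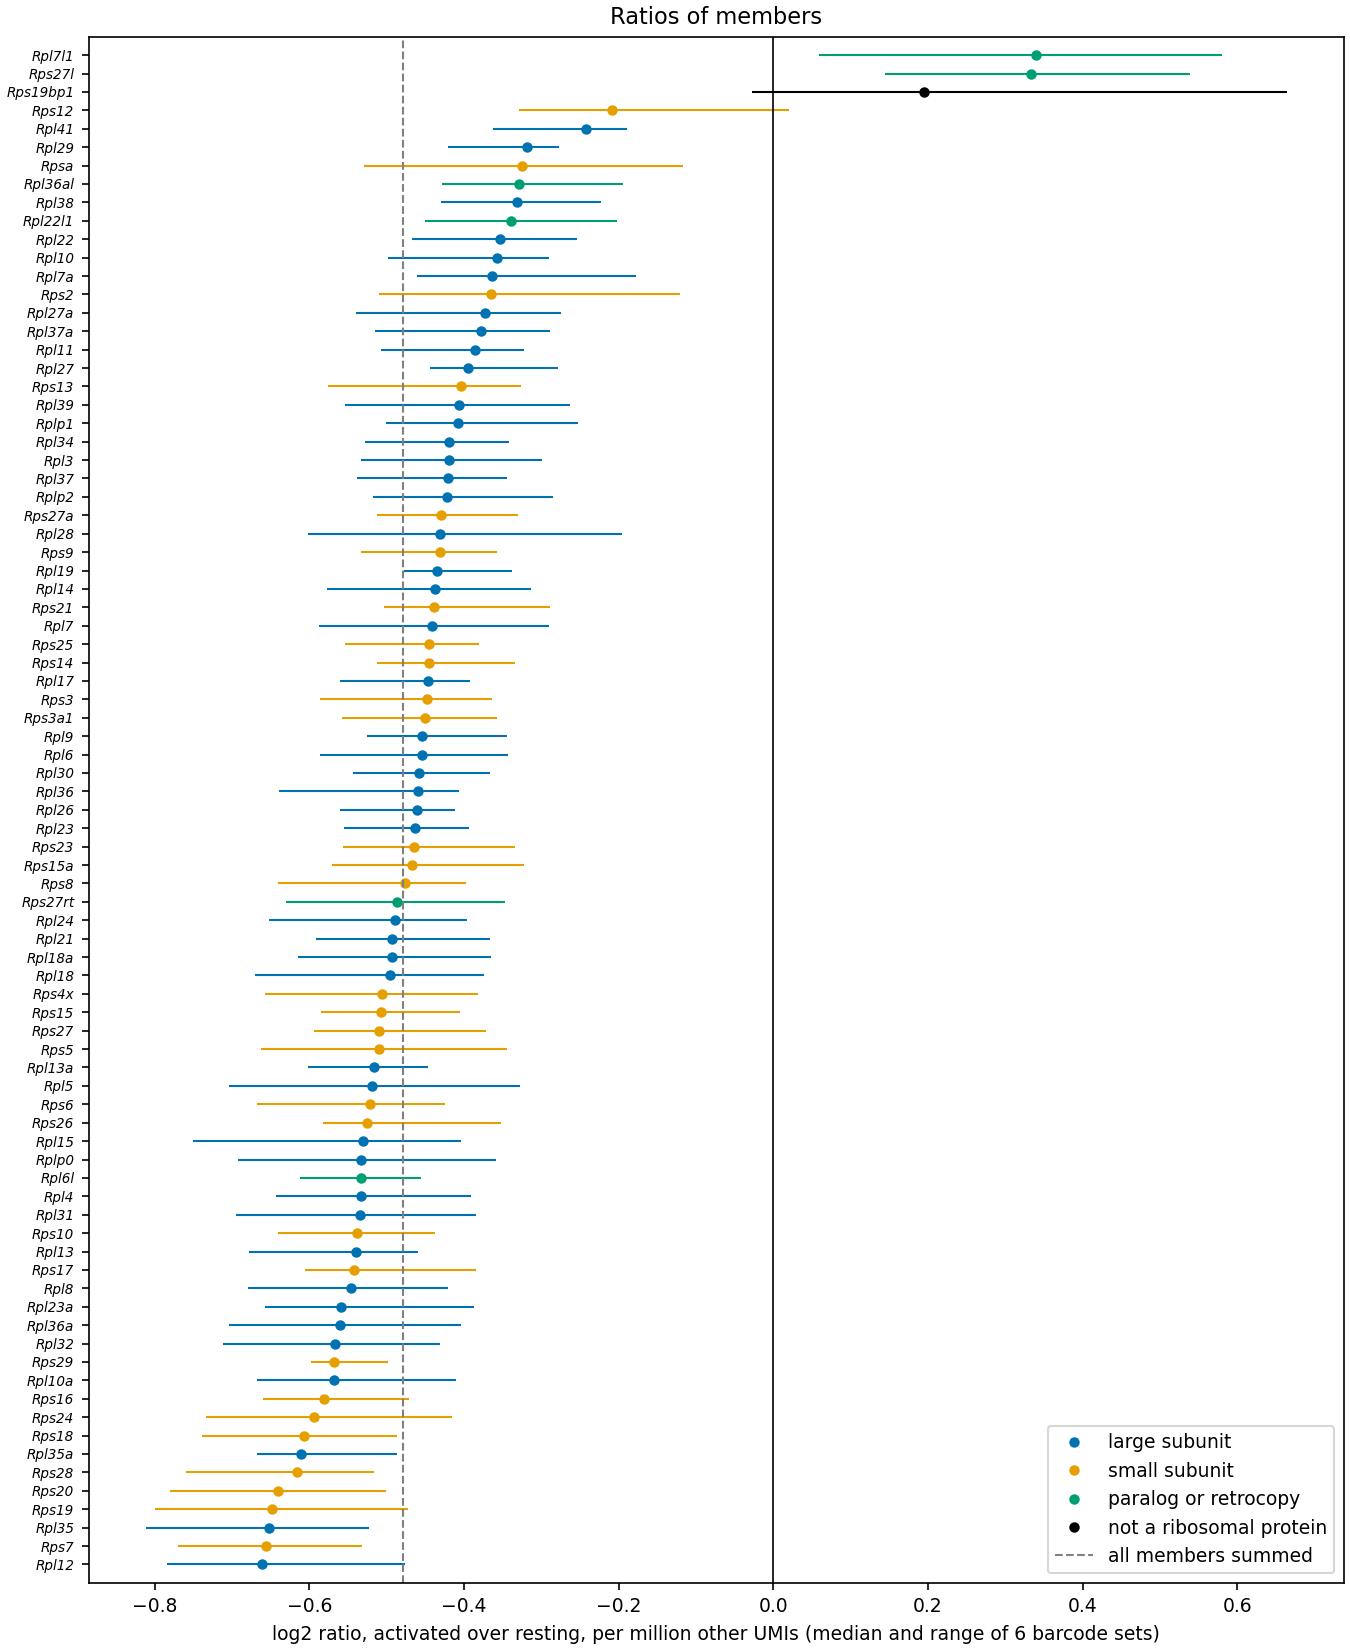
log2 ratio of 83 of the 84 tested members, activated over resting, relative to other UMIs (horizontal); points are medians and lines ranges over 6 barcode sets, coloured by kind, and the dashed line marks all members summed (-0.48). All of those drawn but Rpl7l1, Rps27l and Rps19bp1 have a median below 0.

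Members of both subunits were lower in activated cells, the small subunit slightly more. All 46 large subunit members were lower in 6 of 6 sets and 45 were called, with a median of -0.46. Of 31 small subunit members, 30 were lower in 6 of 6 sets and 30 were called, with a median of -0.51. Summed, large subunit UMIs had a log2 ratio of -0.45 (-0.58 to -0.38) and small subunit UMIs -0.51 (-0.63 to -0.42). Within each set the small subunit ratio was the lower, by a median difference of -0.05 (-0.06 to -0.04, 6 of 6 sets), small against the spread between sets. The balance of the subunits was steady, with large subunit genes taking 54.2 to 54.8% of member UMIs in every set of Treg cells.

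The lowest ratios came from both subunits. Rpl12 (chromosome 2, 32961559 to 32965345, plus strand, mm10), whose protein lies at the base of the ribosomal stalk, was at 3998 to 5976 (median 5021) per 1000000 other UMIs in resting cells. In activated cells it was at 2745 to 3470.3 (median 3228), a log2 ratio of -0.66 (-0.78 to -0.48). Each of its 6 activated values was below each resting value. Rps7 (chromosome 12, 28630854 to 28635953, minus strand), a small subunit gene, went from 7897 to 10824 (median 9507) to 5413 to 6453 (median 5976), a ratio of -0.66 (-0.77 to -0.53). Rpl35 (chromosome 2, 39001580 to 39005624, minus strand), whose protein lies near the exit of the peptide tunnel, went from 8372 to 11743 (median 9930.2) to 5617 to 7097 (median 6259), a ratio of -0.65 (-0.81 to -0.52). Neither gene's classes overlapped. Rps19 (chromosome 7, 24884371 to 24889806, plus strand), the gene most often mutated in Diamond-Blackfan anaemia, was at 12694 to 18681 (median 15550.1) in resting cells. Its activated levels were 8788 to 11007 (median 9797), a ratio of -0.65 (-0.80 to -0.47). Also among the lowest were Rps20 at -0.64, Rps28 at -0.62 and Rpl35a at -0.61, each without overlap between classes. Relative to the summed pool, each of these members was lower in 6 of 6 sets, with median log2 ratios to the pool from -0.10 for Rpl35a to -0.18 for Rpl35.

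The 3 proteins of the stalk, which recruits the elongation factors to the ribosome, did not all lie at one place in the range. Rplp0, the stalk's base, was at 8483 to 11570.4 (median 9853) in resting and 6095 to 7669 (median 6999.7) in activated cells, a ratio of -0.53 (-0.69 to -0.36). Rplp1 was at 8256 to 10549 (median 9371) and 6409 to 7674 (median 7301), a ratio of -0.41 (-0.50 to -0.25). Its partner Rplp2 was at 7156 to 9806 (median 8469) and 5821 to 6847 (median 6371), a ratio of -0.42 (-0.52 to -0.28). All 3 were called lower without overlap, and relative to the pool Rplp1 and Rplp2 were higher in 6 of 6 sets and Rplp0 in 2. They stand here for their role and were added to the named members after their values were seen.

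At the other end, canonical subunit genes with the smallest differences were Rps12, Rpl41, Rpl29 and Rpsa. Rps12 (chromosome 10, 23785183 to 23787275, minus strand), a small subunit gene, was at 2467 to 3437 (median 3012) in resting and 2202 to 3006 (median 2669) in activated cells. Its ratio of -0.21 (-0.33 to 0.02) did not meet the call, and the classes overlapped. Rpl41 (chromosome 10, 128548114 to 128549305, minus strand), which encodes the smallest ribosomal protein, was at 13379 to 16489 (median 14716) in resting and 11529 to 13341 (median 12412) in activated cells. Its ratio, -0.24 (-0.36 to -0.19), was below 0 in 6 of 6 sets and without overlap but under the size limit. Rpl29, at -0.32 (-0.42 to -0.28), and Rpsa, the laminin receptor gene of the small subunit, at -0.32 (-0.53 to -0.12), were both called lower. Rpsa's classes overlapped and Rpl29's did not. Over 26 alternatives each, Rpl29 was called in 24 and Rpsa in 20. Rpsa was not called without set 1, 2 or 3, at -0.23 in each case. Within the pool, 30 members gained share in 6 of 6 sets and 18 lost it, and 60 of 84 stayed within 0.1 of the pool ratio (log2). These gains and losses hold for any choice of total, since each compares a member with the summed members.

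The 6 tested paralogs or retrocopies had ratios from -0.53 to 0.34. Their SD over members was 0.40, against 0.087 in the large and 0.10 in the small subunit. This wider spread lay in the 2 called higher, Rps27l and Rpl7l1, which were sparse. The 4 called lower, at -0.53 to -0.33, lay within the canonical genes' range of -0.66 to -0.21. Rps27l (chromosome 9, 66946086 to 66949516, plus strand), a p53-inducible paralog of Rps27, was at 222 to 276 (median 240.4) in resting and 292 to 324 (median 308) in activated cells. Its ratio was 0.33 (0.14 to 0.54), 1.26-fold higher, with no overlap between classes. Rps27 itself, the member with the most UMIs, went the other way, from 22023 to 29571 (median 25098) to 16154 to 19586 (median 18173), a ratio of -0.51 (-0.59 to -0.37). The retrocopy Rps27rt (chromosome 9, 114982366 to 114982739, minus strand) was lower like Rps27, at -0.49 (-0.63 to -0.35), with overlapping classes. Rpl7l1 (chromosome 17, 46773907 to 46782672, minus strand), an Rpl7 relative, was at 74.1 to 104 (median 81.9) and 87.2 to 141 (median 105), a ratio of 0.34 (0.06 to 0.58), and its classes overlapped, while Rpl7 was at -0.44 (-0.59 to -0.29). The calls of both paralogs were fragile: over 5 other random thinnings Rps27l was called in 1 and Rpl7l1 in 0, although over 26 alternatives each their median ratios stayed above 0 (0.12 to 0.48 and 0.03 to 0.52).

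Rpl22l1, the paralog that can replace Rpl22 in the ribosome and opposes it in T cell development, had a ratio of -0.34 (-0.45 to -0.20), close to that of Rpl22 itself, -0.35 (-0.47 to -0.25). Levels were 1012 to 1456 (median 1259.7) in resting and 880.1 to 1093 (median 977) in activated cells for Rpl22l1. Rpl22 was at 2462 to 3218 (median 2752) and 1994 to 2364 (median 2176). Only the classes of Rpl22l1 overlapped. Rpl36al, at -0.33 (-0.43 to -0.19), differed less than Rpl36a, at -0.56 (-0.70 to -0.40), and relative to the pool Rpl36al was higher in 6 of 6 sets and Rpl36a lower in 6 of 6. Rpl6l, annotated as a processed pseudogene, was at -0.53 (-0.61 to -0.46) against -0.45 (-0.59 to -0.34) for Rpl6. Rpl39 and Rpl10 were called lower, at -0.41 (-0.55 to -0.26) and -0.36 (-0.50 to -0.29). Their paralogs Rpl39l and Rpl10l had only 40 and 3 UMIs in the table and were not tested. Rps19bp1 was at 56.1 to 85.7 (median 65.9) in resting and 66.4 to 113 (median 78.8) in activated cells, a ratio of 0.19 (-0.03 to 0.66) that was not called.

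UMIs were spread over many members, and none took over 3.96% of the family's UMIs. Rps27, Rps29, Rpl37a, Rpl41 and Rpl13 had the most, 3.96, 3.02, 2.48, 2.48 and 2.35% of member UMIs in Treg cells. Rps29, a zinc-binding small subunit gene, went from 17835 to 22651 (median 19846) to 11812 to 15012 (median 13596), and its ratio of -0.57 (-0.60 to -0.50) had a narrow range over the sets. Rpl37a was at -0.38 (-0.51 to -0.29) and Rpl13 at -0.54 (-0.68 to -0.46). Near-identical copies make single values uncertain, because reads can be split between a gene and its copies. For 13 members the table also held rows with -ps, such as Rps12-ps3 with 21313 UMIs beside 46639 for Rps12. Adding these rows to their members moved no ratio by more than 0.02, and Rps12 then stood at -0.20.

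Between sets, members differed by a coefficient of variation that was largest for Rps27rt (23.5%), Rpl12 (18.2%), Rpl36a (18.0%), Rps19 (18.0%) and Rps20 (16.9%), among members with at least 1000 UMIs in each set. Rpl12 was at 4786, 4532, 4975, 3246, 3401 and 3713 per 1000000 other UMIs in the Treg cells of sets 1 to 6, high in sets 1, 2 and 3. Rps27rt did not follow that order, at 2052, 3249.7, 2954, 1897, 2361 and 1951. Sets 2 and 3 were its highest, and set 5 lay above set 1. Its source gene Rps27 was at 23572, 24621, 25623, 18940.5, 19782 and 19354.

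Other genes of the translation machinery were split between lower and little different. Fau, which encodes a ribosomal protein fused to a ubiquitin-like protein, was called lower, at -0.38 (-0.41 to -0.31). Gnb2l1, whose product RACK1 sits on the small subunit, was at -0.44 (-0.67 to -0.34). Of 20 tested genes in a list of other TOP transcripts, 11 were called lower and 0 higher, with a median of -0.30. The lowest ratio there was that of Eef1b2, an exchange factor for the elongation factor EF1A, at -0.48 (-0.66 to -0.32), from 1024 to 1383 (median 1231) to 770.1 to 951 (median 881). Snhg12 was at -0.44 (-0.73 to -0.03). Of 34 elongation and initiation factors, 5 were called lower and 0 higher, with a median of -0.05. The 5 were Eef1b2, Eef1g at -0.36 (-0.42 to -0.19), Eif3e at -0.34 (-0.39 to -0.19), Eef2, which moves the ribosome along, at -0.34 (-0.47 to -0.22), and Eef1a1, which delivers transfer RNA, at -0.32 (-0.40 to -0.19). All 5 also stand in the TOP list, which shares 10 genes with this one. Eef1a1 was named because it completes the 5, after its value was seen. The members and these lists were chosen with earlier results known, so the counts stand only beside the 8.79% and 10.0% of all genes.

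Genes that build ribosomes were also examined. Of 38 tested genes of ribosome biogenesis and the nucleolus, 0 were called in either direction, with a median of -0.01. Rrp15 was at 0.46 (-0.16 to 1.39), the helicase gene Ddx21 at 0.36 (-0.06 to 0.76), Wdr12 at -0.33 (-0.60 to 0.16) and the polymerase subunit gene Polr1c at 0.31 (-0.30 to 0.79). Many of these genes are sparse, and Rrp15 lay at a median level of only 30.9 in resting cells. A shift of the size seen in the ribosomal proteins could go uncalled in single sparse genes. The genes of the list with the most UMIs went both ways and were not called either. Npm1 was at -0.28 (-0.54 to 0.16), Nop10 at -0.24 (-0.33 to -0.12), Ncl at 0.19 (0.08 to 0.52) and Polr1d at 0.05 (-0.05 to 0.31). They were named after their values were seen. Mitochondrial ribosomal protein genes, which serve the separate ribosome of mitochondria, had 3 of 71 called lower and 1 higher, with a median of -0.01. Mrps6 was higher, at 1.03 (0.74 to 1.53), Mrpl30 lower, at -0.55 (-0.89 to -0.46), as were Mrps11 and Mrpl48, named after their values were seen, at -0.41 and -0.35. Mrpl32 was at 0.49 (-0.17 to 0.84) and Mrpl22 at -0.41 (-0.56 to 0.17). Of 12 tested genes of mTORC1 signalling and the 4E-BP translation inhibitors, 1 was called lower, Sesn1, which encodes the mTORC1 inhibitor sestrin 1, at -0.81 (-1.21 to -0.48). Eif4ebp1 was at 0.54 (-0.48 to 1.16), Rps6kb2, a kinase gene of the small subunit protein S6, at 0.39 (-0.17 to 0.75) and Eif4ebp2 at -0.36 (-0.65 to 0.10). Of 14 snoRNA host genes only 3 were in the table, with Snhg9 called lower at -0.38, with its least difference near 0, Snhg12 as above, and Snhg6 at -0.21 (-0.64 to 0.19).

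**Figure D4:**
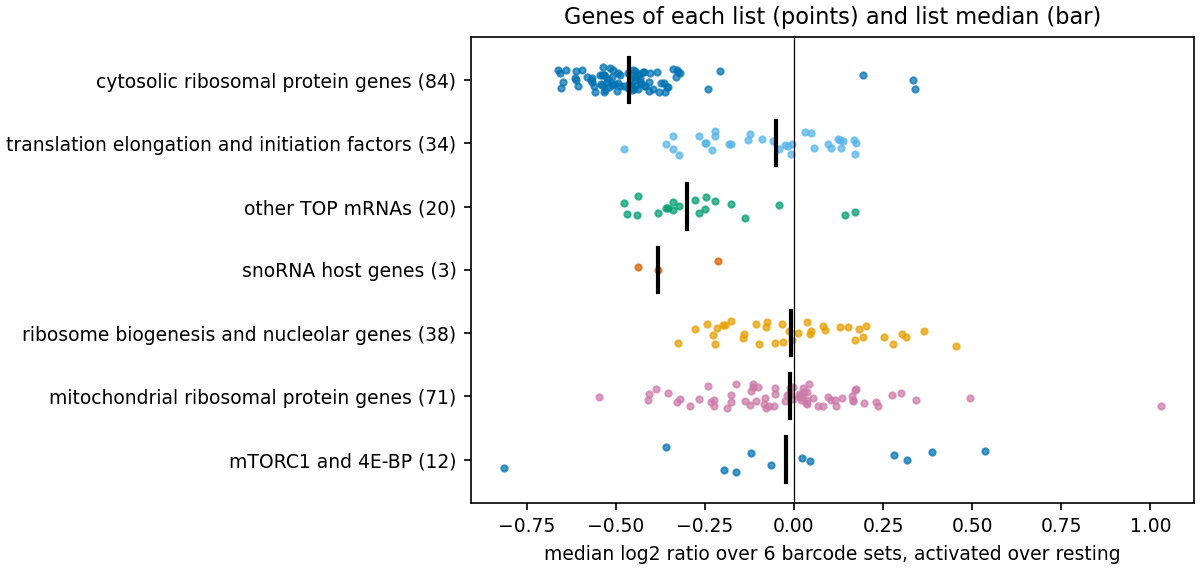
Median log2 ratio over 6 barcode sets of each tested gene (points), activated over resting, by list, with the number tested and the list median (bar). Cytosolic ribosomal protein genes (median -0.46) and other TOP transcripts (-0.30) have lower medians than ribosome biogenesis and mitochondrial ribosomal protein genes (both -0.01), and each of these lists also has genes above 0.

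Other states were set by their own marker lists, as cells with at least 3 markers against Treg cells with none. Cells with T cell receptor response markers (263 cells), such as Nr4a1 and Egr2, had a members' share of 30.6 to 35.9% over the sets, against 32.7 to 39.5%. The pool ratio was -0.15 (-0.34 to -0.07), and 1 member was called lower, Rpl13a at -0.30, named after its value was seen, against 3.06% of 6117 genes lower and 7.06% higher. Activated cells made up 56.7% of these cells and 22.1% of cells without such a marker, and 2 markers, Cd83 and Tnfrsf9, stand in both lists. Among activated cells alone the ratio was -0.03 (-0.07 to 0.08). Interferon-responding cells (560 cells) had a ratio of 0.05 (-0.06 to 0.08), with 0 members called, against 1.53% of 5563 genes lower and 3.67% higher.

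Only 100 cells had at least 2 cycling markers, the limit used because fewer than 100 cells had 3, and a set held as few as 4 of them. Their members' share was 25.4 to 32.2%, against 32.8 to 39.0% in cells without such a marker. The pool ratio was -0.43 (-0.55 to -0.32), with 58 of 84 members called lower, against 5.63% of 7157 genes, and Rps27l, again, higher at 0.81, against 8.90%. These cells were deep, with a median of 5109.5 UMIs against 2092, and 48 of them were activated. Among activated cells alone the ratio was -0.38 (-0.90 to -0.11). The part of depth and of doublets in this difference was not tested. Leaving them out moved the activated over resting pool ratio only to -0.47, and 79 members were still called lower.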

How the data were processed

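The labels' protocols give enrichment of CD4 T cells, a FACS sort and the 10x Chromium 3′ kit v2. The submitters' processing notes list Cell Ranger, Seurat, HISAT2, cutadapt and FastQC, with mm10 as the build. Versions and steps are not given in the sources used here. The deposited raw table holds whole UMI counts per gene and cell. The authors' second table holds, by its values, natural logs of scaled counts for 10464 cells, and served only to choose cells in an alternative.

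The members, markers, lists and rules were chosen with earlier results of these data known. Cells below 200 genes, or at 10% mitochondrial UMIs or more, were dropped. Cells with at least 2 markers of B cells, myeloid, CD8 T or NK cells, or over 5% erythroid UMIs, were left out, as were cells with under 600 UMIs outside the family. No doublet caller was run. Each cell was thinned to 600 such UMIs (seed 1) only to set its class by 28 activated and 16 resting markers, and full counts were then summed by class and set. Ratios were taken within each set with 0.5 UMIs added, and their median over 6 sets is reported. Genes with at least 200 UMIs over both classes were tested by the rule of 1.2-fold and 6 of 6 sets. No p-value was computed, since cells are not replicates, and the planned edgeR fit between genotypes was not run. Intervals are exact, at 95%. The ratio and call steps were tested on simulated data. Named were the 8 highest and 8 lowest ratios, the 5 highest levels, the 5 most variable members over sets, paralog pairs, members below 200 UMIs, the gene that encodes no ribosomal protein and the 4 largest ratios of each list. A few items these rules take are not reported here. Python 3.11.15, numpy 2.4.6, scipy 1.17.1, pandas 2.3.3 and matplotlib 3.10.9 were used, with gene positions from GENCODE M21 (mm10).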

Additional observations from a re-analysis of the deposited data

How the results depend on the processing

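The pool was lower in activated cells under all 28 alternatives tried. The log2 ratio was -0.31 when levels were taken relative to all UMIs, -0.37 with a marker difference of at least 1, -0.58 with at least 3 and -0.38 in cells of 1500 to 2500 UMIs. Leaving out each barcode set in turn gave -0.43 without set 1, 2 or 3 and -0.53 without set 4, 5 or 6. As medians over the remaining sets, these could take no other values. The number of members called lower was 10 with a limit of 1.5-fold and 55 to 80 under the other alternatives, and 78 to 79 without a set. The number called higher was 2 in the main comparison and is not firm. It was 0 with a marker difference of at least 1, in 4 of 5 other thinnings, without the top 2% of cells by UMIs, in cells of 1500 to 2500 UMIs and at 1.5-fold. It was 1 with a difference of at least 3, with thinning to 400 other UMIs or to 1000 UMIs of all genes, with no thinning and in the remaining thinning, and 1 to 2 without a set (1 without set 3, 4 or 6). Of 757 values of named members under alternatives, 670 stayed within 1 SD over the sets, 87 moved further and 0 changed the sign of a call. The moves were concentrated in a few settings. Levels relative to all UMIs moved 26 of 29 named members and a marker difference of at least 1 moved 20. A difference of at least 3 moved 16, as did cells of 1500 to 2500 UMIs. The share in sets 1 to 6 was 37.9, 37.6, 38.7, 32.6, 32.5 and 33.3% in all cells of the table, 38.2, 37.7, 38.9, 32.6, 32.8 and 33.6% in cells of the authors' normalised table and 37.0, 36.7, 37.8, 31.5, 31.2 and 32.5% as the median over cells. With resting and activated cells weighted equally, an alternative chosen after seeing the data, it was 37.4, 36.9, 37.6, 32.9, 32.8 and 33.6%. No paired analysis was possible because the replicate numbers in the labels, which could pair WT with cKO samples, are tied to no cell (the activated over resting ratios were taken within each set). Depth limits the members Rpl39l and Rpl10l and the sparse genes of ribosome biogenesis.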

Other observations

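The members' share of UMIs fell into separate clusters of barcode sets in each class. In resting and in activated cells, sets 1, 2 and 3 were each above sets 4, 5 and 6. The difference between resting and activated cells was 8.59, 8.67, 9.71, 6.49, 6.29 and 6.13 points in sets 1 to 6. Resting cells were 25.1, 27.1, 27.5, 15.4, 16.8 and 17.7% of Treg cells in these sets and activated cells 23.8, 23.5, 21.3, 33.3, 35.8 and 30.4%. In Treg cells together, 80 of 84 tested members (95.2%) had each of sets 1, 2 and 3 above each of sets 4, 5 and 6, against 8.88% of 5374 other genes tested. This order was noticed in the data and then counted, and no name ties a set to a sample, so these are values of unassigned sets and not a comparison of groups.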
